A study of Mus musculus with 2 samples.

Results

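The inner skeleton of the intestinal epithelial cell was described by 10 genes, read by 13 probe sets: the type II keratins Krt7 and Krt8, the type I keratins Krt18, Krt19, Krt20 and Krt23, and the brush border proteins Vil1, Ezr, Myo1a and Espn. They were picked by gene symbol in the array annotation, and they are 10 of 18193 genes named by a probe set with a single symbol. The knockout group was Lpcat3F/F, Villin-CreERT2 mice and the control group was Lpcat3 F/F mice. Mice of both groups carried the floxed alleles of Lpcat3, which encodes a lysophospholipid acyltransferase, and mice of both groups were injected with tamoxifen (1 mg per mouse per day for 5 days) at 8 to 10 weeks of age. Only the knockout mice carried the tamoxifen-activated Cre, which villin regulatory sequence expresses in intestinal epithelium. Crypts of the small intestine were isolated 2 weeks after tamoxifen, and the RNA of 5 mice made 1 pool per group, read on 1 Affymetrix array per group. There were therefore no replicates and no test of genotype, and effects of losing Lpcat3, of carrying Cre, of the mice pooled and of each array cannot be told apart.

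Keratins form intermediate filaments in which a type I chain always pairs with a type II chain. In simple epithelia such as that of the gut, Krt8 is the main type II partner and Krt18, Krt19 and Krt20 are type I partners, and the filaments support the cell below its apical surface. Above them lies the brush border, a carpet of microvilli whose actin cores are bundled by villin, espin and plastin 1, tied to the membrane by ezrin and the motor myosin 1a, and rooted in a terminal web of spectrin and myosin II. Microvilli are most developed on villus enterocytes, and crypt cells build them as they differentiate.

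Transcripts of these genes were, with 1 exception, slightly higher in the knockout pool. By the brightest probe set of each gene, 9 of 10 had a ratio above 0, against 44.9% of the 11496 genes measured and 58.7% of the 2310 genes with a signal of at least 2000 on both arrays. The median log2 ratio, knockout over control, was 0.22 (1.16-fold), against -0.04 over all measured genes and 0.05 over those bright genes. By that probe set none of the 10 was as much as 1.5-fold higher or lower, although a dim second probe set of Ezr was 2.26-fold higher, where 4.76% of measured genes were higher and 8.74% lower by that much. Among the bright genes the shares were 3.29% higher and 2.12% lower, and 94.6% lay within 1.5-fold. The largest ratios were those of Espn, Ezr, Krt20 and Krt7, and the 1 ratio below 0 was that of Krt18.

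The values were MAS5 signals, which are linear intensities summarised over the probes of a probe set. A signal below 92.9, the median of all values of both arrays, was treated as not measured. All 13 probe sets lay above this floor on both arrays. Technical error was the SD of the difference in log2 ratio between 2 probe sets of a gene, divided by the square root of 2. This SD, which applies to 1 ratio, was 0.28 over 4582 genes (1.21-fold). It was 0.15 over the 547 genes whose 2 brightest probe sets reached 2000 on both arrays. This error leaves out differences between mice and between pools. A 1.5-fold difference is 2.10 of the first SD. On the array labelled knockout Lpcat3 itself had a signal of 928, against 4691 on the control array (log2 ratio -2.34), by 1 probe set.

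**Figure D1:**
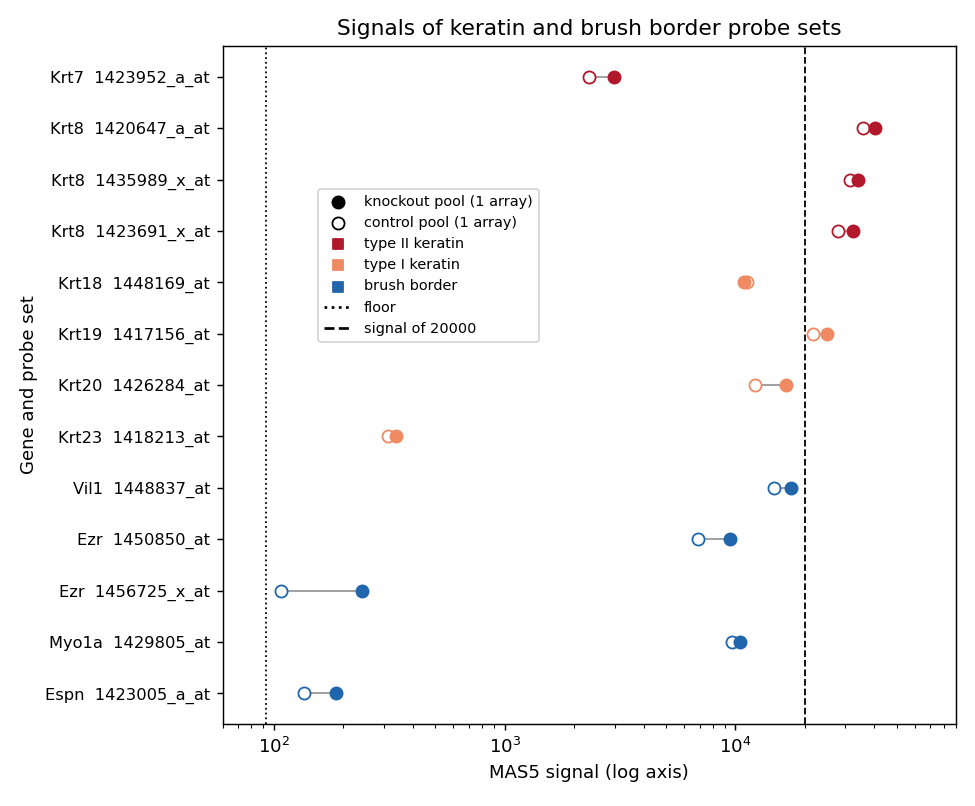
MAS5 signal (log axis) of each of the 13 probe sets in the knockout pool (filled) and the control pool (open), 1 array each, coloured by role, with the floor of 92.9 and a signal of 20000 marked. The filled point lies to the right of the open one for 12 of the 13 probe sets, and the 3 probe sets of Krt8 and that of Krt19 lie above 20000 on both arrays.

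Sequence upstream of the transcription start is shown for the members with the highest and lowest ratios among the bright ones (Ezr, Krt20 and Krt18), for Krt8 as the partner of Krt18, and for Vil1 as the gene whose regulatory sequence drives the Cre. Each line gives the 250 bases before the start, from RefSeq annotation of GRCm38.p6, read 5′ to 3′ on the gene's strand. The positions are chr15:102004343-102004592, minus strand, for Krt8, chr15:102027966-102028215, plus strand, for Krt18, chr11:99438154-99438403, minus strand, for Krt20, chr1:74409134-74409383, plus strand, for Vil1, and chr17:6782781-6783030, minus strand, for Ezr. Capitals mark matches, on either strand, to the motifs TTTATNG (caudal-type homeobox), CAAAGTC (HNF4), TGANTCA (AP-1) and GGGNGGGG (KLF and SP).
Krt8: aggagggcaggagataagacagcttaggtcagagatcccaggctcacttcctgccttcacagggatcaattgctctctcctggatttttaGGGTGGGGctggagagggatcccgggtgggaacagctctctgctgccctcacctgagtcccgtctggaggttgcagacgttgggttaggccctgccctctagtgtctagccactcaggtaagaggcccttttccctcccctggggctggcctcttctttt
Krt18: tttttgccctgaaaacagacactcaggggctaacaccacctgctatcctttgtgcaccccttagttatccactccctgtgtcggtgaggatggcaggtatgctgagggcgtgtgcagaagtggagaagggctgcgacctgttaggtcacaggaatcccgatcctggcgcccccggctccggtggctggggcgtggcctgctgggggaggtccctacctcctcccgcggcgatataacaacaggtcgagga
Krt20: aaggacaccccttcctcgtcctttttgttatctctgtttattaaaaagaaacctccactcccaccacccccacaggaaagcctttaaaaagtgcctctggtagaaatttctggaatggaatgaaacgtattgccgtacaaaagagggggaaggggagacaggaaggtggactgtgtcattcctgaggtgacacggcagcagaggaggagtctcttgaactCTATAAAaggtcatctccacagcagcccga
Vil1: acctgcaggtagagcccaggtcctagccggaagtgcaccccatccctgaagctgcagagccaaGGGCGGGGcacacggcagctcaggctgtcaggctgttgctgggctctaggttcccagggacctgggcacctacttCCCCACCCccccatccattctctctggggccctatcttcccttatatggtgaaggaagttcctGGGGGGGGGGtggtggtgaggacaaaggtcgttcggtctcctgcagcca
Ezr: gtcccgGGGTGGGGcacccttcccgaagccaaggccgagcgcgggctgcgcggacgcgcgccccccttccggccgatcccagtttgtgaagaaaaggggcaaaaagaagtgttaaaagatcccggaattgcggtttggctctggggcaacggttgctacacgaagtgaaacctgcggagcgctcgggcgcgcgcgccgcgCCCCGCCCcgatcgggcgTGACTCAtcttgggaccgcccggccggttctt

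In Krt20 the capitals are CTATAAA, a match to the reverse of TTTATNG, 30 to 24 bases before the start. In Ezr the TGACTCA lies 32 to 26 bases before the start, with matches to the KLF and SP motif farther upstream, at 244 to 237 and at 50 to 43 bases before the start. Vil1 had the KLF and SP motif at 187 to 180 and at 112 to 105 bases, and 3 overlapping matches in a run of G. Krt8 had it once, and the 250 bases of Krt18 held none of the 4 motifs. Windows of 250 bases before to 50 after the start were matched for 9 of the 10 genes (11 windows, since Espn has several starts), all but Krt19. The homeobox motif was in 2 of these 11 windows (Krt20 and 1 of Espn) and in 10.9% of 32851 windows of all genes. AP-1 was in 1 of 11 (7.81% of all), KLF and SP in 6 of 11 (33.2%), and HNF4 in 0 of 11 (4.44%). A match to letters is a description and not a bound site.

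Among the type II keratins, Krt8, the main type II chain of simple epithelia, had signals of 40321, 33916 and 32271 in the knockout pool, against 35760, 31298 and 27927 in the control pool, by its 3 probe sets. The 3 log2 ratios were 0.17, 0.12 and 0.21. All 3 probe sets thus read Krt8 between 1.08-fold and 1.16-fold higher in the knockout pool. Those at 0.12 and 0.21 are of the _x_at kind, which can bind related transcripts. By the SD of 0.28 they lay within 1 probe-set SD of no difference. By the SD at bright signals they lay at 1.18, 0.79 and 1.42 SDs. These signals are near the top of the scale, which ended at 58617 on the knockout array and 52434 on the control array. Probe sets this bright seldom differed: of 274 above 20000 on both arrays, 2.19% differed by 1.5-fold or more. Of 332 above 20000 on either array, 47.6% had a ratio above 0. Of the 2310 genes with a signal of at least 2000 on both arrays, 58.7% did. Krt7, a type II keratin best known from ducts and other glandular linings, had a signal of 2978 in the knockout pool and 2315 in the control pool. Its log2 ratio was 0.36 (1.29-fold), and 11.8% of measured genes had a higher one.

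Among the type I keratins, Krt18, the usual partner of Krt8, had a signal of 10923 in the knockout pool and 11277 in the control pool, a log2 ratio of -0.05. It was the 1 member not higher in the knockout pool, and its difference was well within the probe error. Krt19, the smallest keratin, had a signal of 24848 in the knockout pool and 21753 in the control pool, a log2 ratio of 0.19 read above 20000 on both arrays. Krt20, a keratin of differentiated gut cells toward the villus, had a signal of 16538 in the knockout pool and 12223 in the control pool. Its log2 ratio of 0.44 (1.35-fold) was the highest of the 6 keratins and 1.56 of the SD of 0.28, or 2.97 of the SD at bright signals. Krt23, another type I keratin, was dim, with a signal of 338 in the knockout pool and 314 in the control pool (log2 ratio 0.11).

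Partners in a filament can be set side by side by their ratios. That of Krt8 exceeded that of Krt18 by 0.22 and fell short of that of Krt20 by 0.26, whereas a difference between 2 such ratios carries an SD of 0.39, or 0.21 at bright signals. The ratio of Krt8 lay within 0.02 of that of Krt19. The widest gap among the keratins, 0.48 between Krt20 and Krt18, was 1.22 of the first and 2.32 of the second of these SDs. Krt8 and Krt18 are direct neighbours in the RefSeq gene table, with 0 protein-coding genes between them, although one chain is type II and the other type I. Krt20 and Krt23 are likewise neighbours with 0 protein-coding genes between, and had ratios of 0.44 and 0.11.

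**Figure D2:**
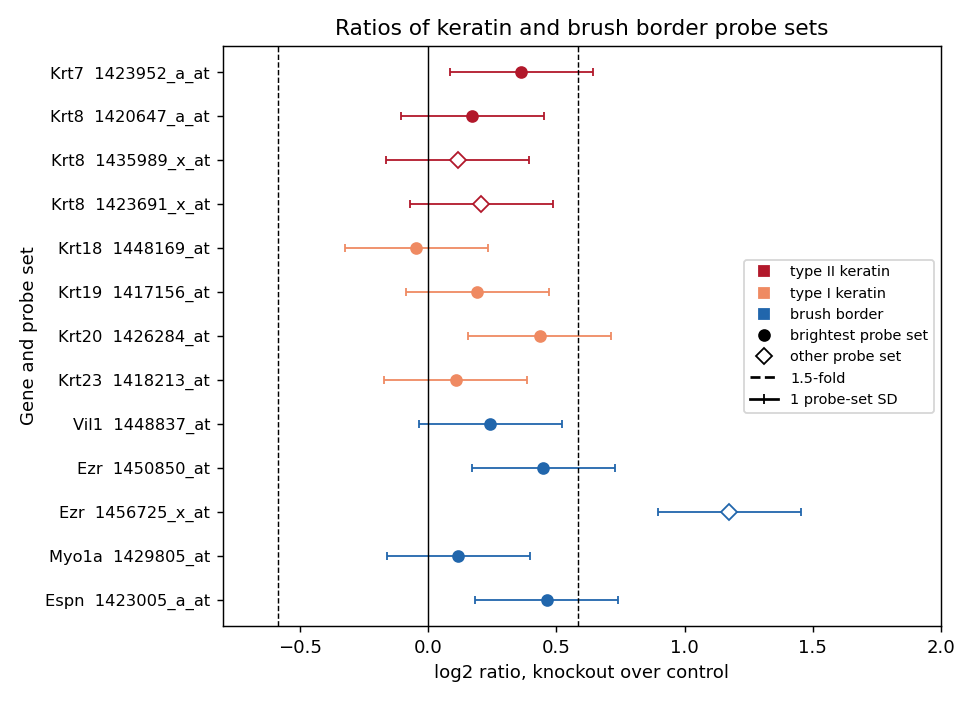
Log2 ratio, knockout over control, of the 13 probe sets, with bars of 1 probe-set SD (0.28) and dashed lines at 1.5-fold. Filled circles are the brightest probe set of each gene and lie between -0.05 and 0.46. The open diamond at 1.17 is the dim second probe set of Ezr.

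All 4 brush border genes were higher in the knockout pool (44.9% of all measured genes were), with a median log2 ratio of 0.35. Vil1, which bundles and severs the actin of the microvillus core, had a signal of 17444 in the knockout pool and 14737 in the control pool (log2 ratio 0.24, 1.18-fold). Espn, a second bundler of those cores, had 186 in the knockout pool and 135 in the control pool. Its log2 ratio of 0.46 (1.38-fold) was the highest of the 10 genes by brightest probe set, but both signals were near the floor of 92.9, where error is larger than at the bright end.

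Ezr, the linker between the membrane and the actin cores, had a signal of 9451 in the knockout pool and 6921 in the control pool, a log2 ratio of 0.45 (1.37-fold). Only 8.3% of measured genes had a higher ratio. Its second probe set gave 241 in the knockout pool and 107 in the control pool, a log2 ratio of 1.17 (2.26-fold). Both probe sets of Ezr were higher in the knockout pool, but they differed by more than the probe error, and the second is dim and of the _x_at kind, which can bind related transcripts. Myo1a, the motor that joins the core to the membrane along the microvillus, had 10485 in the knockout pool and 9658 in the control pool (log2 ratio 0.12, 1.09-fold). That is the smallest ratio of the 4 brush border genes and within 1 SD of 0 at either error.

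**Figure D3:**
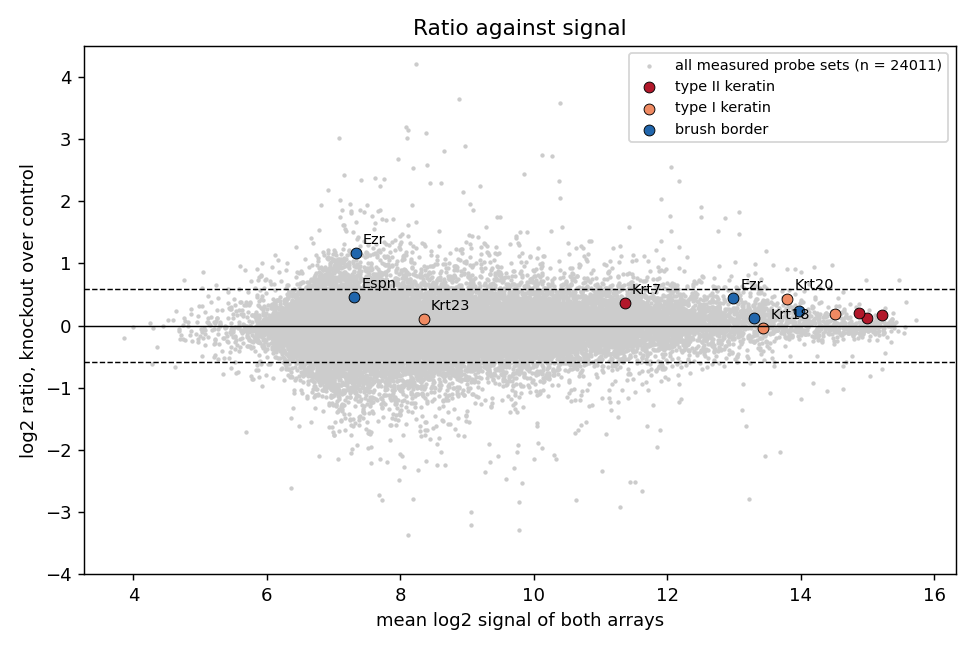
Log2 ratio, knockout over control, against mean log2 signal for all 24011 probe sets above the floor on at least 1 array (grey) and for the 13 probe sets of the 10 genes (coloured by role). The spread of the grey points narrows toward bright signals, where most of the keratins and brush border genes lie, and Espn, Krt23 and the second Ezr probe set lie at the dim end.

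Relatives of the brush border genes diverged from them in both directions. Gsn, gelsolin, an actin-severing relative of villin, had a signal of 2525 in the knockout pool and 1166 in the control pool by its brightest probe set. Its log2 ratio was 1.11 (2.17-fold), and 3 other probe sets gave 1.17, 1.30 and 1.31, while a dim one gave 0.56. Avil, advillin, another villin relative that is known from tuft cells, had 298 in the knockout pool and 643 in the control pool (log2 ratio -1.11). Vill, the villin-like gene, had 108 in the knockout pool and 196 in the control pool (log2 ratio -0.85). Scin, scinderin, lay at -0.11. The relatives of Vil1 listed here therefore ran from -1.11 (Avil, dim) to 1.11 (Gsn), with Vil1 itself at 0.24. The ratio of Gsn exceeded that of Vil1 by 0.87, which is 2.21 SDs of a difference. Most tuft cell markers were lower beside Avil. Of 5 measured of 6, 4 were at least 1.5-fold lower (8.74% of all measured genes) and Il17rb was higher (0.29). The summed signal of the 5 was 1358 in the knockout pool and 2702 in the control pool. Whether fewer tuft cells or less RNA per cell gave this cannot be told apart in pooled tissue, and its part in the ratio of Avil was not tested.

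Of the ezrin, radixin and moesin family, Msn (moesin) lay at 0.00, with signals of 204 in the knockout pool and 205 in the control pool. Rdx (radixin) was at 70.3 in the knockout pool, below the floor, and at 125 in the control pool, at least 1.34-fold lower. Slc9a3r1, the scaffold NHERF1 that ezrin binds under the membrane, was higher like Ezr, with a signal of 22971 in the knockout pool and 17700 in the control pool. Its 3 probe sets gave log2 ratios of 0.38, 0.45 and 0.23. Pdzk1, a second scaffold of this kind in the brush border, had 1024 in the knockout pool and 1809 in the control pool (log2 ratio -0.82, 1.77-fold lower). Of the kinases that phosphorylate these linkers, Stk10 and Stk26 were dim, lay below the floor in the knockout pool and were lower by at least 1.80-fold (Stk10) and 1.84-fold (Stk26), while probe sets of the brighter Slk went both ways.

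Over the whole list of 47 other brush border and cortical actin genes, 44 were measured, and 38 of these lay within 1.5-fold, as did 86.5% of all measured genes. Gsn was the 1 gene at least 1.5-fold higher (4.76% of all measured genes). Avil, Vill, Pdzk1, Stk10 and Stk26 were the 5 at least 1.5-fold lower (8.74%). The median was 0.02. Pls1, plastin 1, the remaining bundler of the microvillus core, was at -0.34 (6598 in the knockout pool and 8324 in the control pool), opposite in sign to Vil1 and Espn. Genes of the complex that links the tips of neighbouring microvilli went both ways. Cdhr5 was at 0.21 and Myo7b at 0.22, and Cdhr2 at -0.07 and Ush1c at -0.10. Each was within 1 SD of 0 by the SD of 0.28. By the SD at bright signals Cdhr5 and Myo7b lay at 1.44 and 1.49 SDs, and Cdhr2 and Ush1c within 1 SD. Eps8, which caps the tips, had ratios of 0.26, -0.13 and -0.04 by its 3 probe sets, so no direction can be given. The actins themselves were at 0.11 (Actb) and 0.10 (Actg1), both above 20000 on both arrays. Of the myosins II, Myh14 was at 0.36 and Myh9 at -0.17. Baiap2l1, which acts in microvillus growth, was at 0.36 but -0.26 by its other probe set, and Lcp1, plastin 2, a bundler of white blood cells, at -0.58.

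Among genes that anchor keratin filaments or form other filaments, 16 of 17 were measured, with a median of -0.02. Plec, plectin, which ties keratin filaments to other structures of the cell, had a signal of 4645 in the knockout pool and 2538 in the control pool. Its log2 ratio was 0.87 (1.83-fold), and its other measured probe set gave 0.42. Lmna, the nuclear lamin A and C gene, had 1750 in the knockout pool and 1031 in the control pool (0.76, and 0.61 to 0.94 by its other measured probe sets). Dst, dystonin, a linker of the plectin family, was at 0.61, with signals of 1210 in the knockout pool and 791 in the control pool. These 3 of 16 were at least 1.5-fold higher (4.76% of all measured genes). The count was 1 by the dimmest measured probe set of each gene, where Dst was a bound. By the brightest, 2 of 16, Evpl and Des, were at least 1.5-fold lower (8.74%). Evpl, envoplakin, had 179 in the knockout pool and 369 in the control pool (-1.04). The muscle filament gene Des was below the floor in the knockout pool and at least 1.62-fold lower. Eppk1, epiplakin, a keratin-binding protein of simple epithelia, was at -0.53. The desmosome genes Dsp (0.08), Jup (0.13) and Pkp2 (0.32) lay within 1.5-fold by their brightest probe sets.

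**Figure D4:**
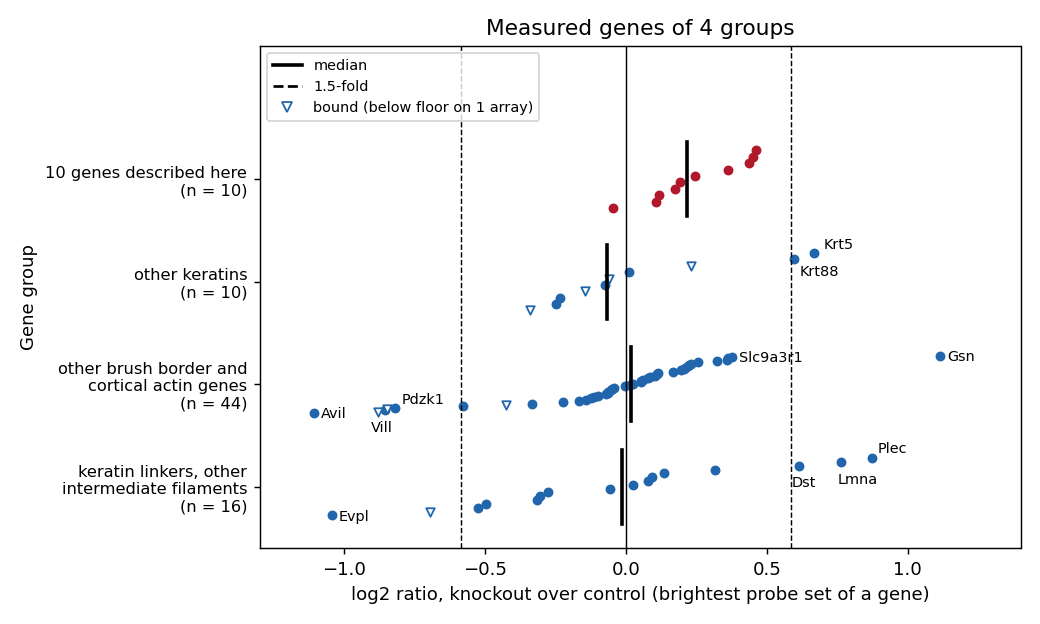
Log2 ratio, knockout over control, of the measured genes of 4 groups by brightest probe set, with the median of each group (black bar) and dashed lines at 1.5-fold. The 10 keratin and brush border genes lie between -0.05 and 0.46 with a median of 0.22, and the medians of the other 3 groups are -0.07, 0.02 and -0.02.

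The array also carried 42 other keratin genes, most of them keratins of skin, hair and stratified linings. Only 10 were above the floor on either array, with a median of -0.07. Of these, 8 were within 1.5-fold (86.5% of all measured genes). The lowest were Krt6a, which lay below the floor in the knockout pool and was at least 1.27-fold lower, Krt42 and Krt81 (-0.23). Krt42, at 858 in the knockout pool and 1020 in the control pool by an _x_at probe set, was at -0.25. Its other probe set was dim, with 93.9 in the knockout pool and 125 in the control pool (-0.41). Krt5, a basal keratin of stratified epithelium, had 186 in the knockout pool and 117 in the control pool (0.67), and Krt88 had 319 in the knockout pool and 211 in the control pool (0.60). Krt80, below the floor in the control pool, was at least 1.17-fold higher. Krt5 and Krt88 were each read by 1 probe set, that of Krt5 close to the floor. The other basal keratin Krt14 was below the floor by all its probe sets on both arrays.

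Markers of other cells were read beside these values. All 6 general epithelial markers, among them Epcam and Cdh1, were measured and within 1.5-fold, with a median of 0.04 and a summed signal of 95372 in the knockout pool and 89774 in the control pool. Villus enterocyte markers had a median of 0.16 over 8 genes measured of 10, with Alpi at 0.62 and Lct at -1.36, and a summed signal of 183868 in the knockout pool and 170165 in the control pool. All 4 stem cell markers were lower, as were 6337 of all 11496 measured genes, and 2 of the 4 were at least 1.5-fold lower (8.74%). Their summed signal was 23723 in the knockout pool and 36063 in the control pool. The 6 goblet cell markers had a median of -0.13 and a summed signal of 86719 in the knockout pool and 95576 in the control pool. All 8 T and natural killer cell markers were at least 1.5-fold lower (8.74% of all measured genes). Their summed signal was 8511 in the knockout pool and 37333 in the control pool. All 4 B and plasma cell markers were higher (44.9% of all measured genes), and 3 of the 4 were at least 1.5-fold higher (4.76%). Cd79a was at 0.12, with signals near the floor (104 in the knockout pool and 95.5 in the control pool). The summed signal of the 4 was 4391 in the knockout pool and 1082 in the control pool. Of 9 mesenchyme and muscle markers 4 were measured, with a summed signal of 743 in the knockout pool and 754 in the control pool. These 4 went both ways. Acta2 was at 0.76 and Col1a2 at least 1.25-fold higher, while Vim was at -0.31 and Des at least 1.62-fold lower. Of 3 endothelial markers 1 was measured. The part of any of these in the ratios of the keratin and brush border genes was not tested. The 3′ to 5′ signal ratio of the Actb control probe sets, a sign of RNA integrity, was 1.64 in the knockout pool and 1.98 in the control pool. That of Gapdh was 0.742 in the knockout pool and 0.785 in the control pool. These control probe sets were themselves higher in the knockout pool. Their log2 ratios (3′, middle and 5′) were 0.115, 0.371 and 0.391 for Actb and 0.363, 0.546 and 0.443 for Gapdh. The part of these in the ratios of the keratin and brush border genes was not tested either.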

How the data were processed

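The value table deposited by the authors holds signal intensity on a linear scale for 45101 probe sets on 2 arrays, produced by MAS5, as the submitters' processing notes name it. Its version, its options and a genome build are not stated in those notes or the labels. Both columns had a mean of 500 after 2% was trimmed at each end, so no further scaling was applied. Their number is that of the full mouse array, although the design text names the smaller A version.

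The 64 control probe sets were set aside. Of the rest, 34945 had 1 gene symbol, 932 several and 9160 none. Symbols were updated through Entrez identifiers to RefSeq (GRCm38.p6) for 34741, and only probe sets with 1 symbol named a gene. Signals were raised to a floor at the 50th percentile (92.9) before log2, knockout minus control. A gene was read by its brightest probe set. A gene below the floor on 1 array has a bound, written "at least".

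With 1 array per group no test was made; precision is limited by having so few arrays. Genes were counted at 1.5-fold. Probe-set error is the SD of the difference between the ratios of the 2 brightest probe sets of a gene, divided by the square root of 2. The calculation of ratios and error was run on simulated arrays with independent noise of the same SD for every probe set. That checks the calculation only, and not the size of the error in these data. The members and lists were chosen with earlier results of these data known. Every member is named, and of each list the genes at least 1.5-fold different, the 3 highest and lowest, and set partners of the members (plastin, tip-link, scaffold, actin and plectin genes). Relatives of villin and ezrin, kinases, desmosome genes, Eppk1, Krt14, Krt42, Lcp1, Myh14, Myh9 and Baiap2l1 were also named, some of them after their values were seen. Alternatives changed scaling, floor and probe-set choice. Python 3.11.15, pandas 2.3.3 and statsmodels 0.14.6 were used.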

Additional observations from a re-analysis of the deposited data

How the results depend on the processing

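Over 11 alternatives for scaling, floor and probe sets, the median log2 ratio of the measured keratin and brush border genes stayed between 0.19 and 0.30, and none of them was at least 1.5-fold lower. The highest median, 0.30, came without Krt8 and Krt19, the members above 20000. The count at least 1.5-fold higher was 0 except with the median of the probe sets of a gene, or its dimmest measured probe set (an alternative added after the data were seen), each of which gave 1, which is Ezr through its _x_at probe set. Per probe set, Krt18 ranged from -0.13 to -0.01, Krt20 from 0.36 to 0.47, the bright Ezr probe set from 0.38 to 0.48 and Espn from 0.29 to 0.54. The dim Ezr probe set gave 0.74 with a pseudocount and could not be measured with the floor at the 70th percentile, nor could Espn. Of the other genes past 1.5-fold, Plec was at 0.42 without _s_at and _x_at probe sets. With the higher floor (317.66), Evpl lay below it in the knockout pool and Krt88 in the control pool. Their log2 ratios were then only bounds, -0.22 or lower for Evpl and 0.01 or higher for Krt88. By the dimmest probe set Gsn was at 0.56 and Plec at 0.42. That of Dst lay below the floor in the control pool and gave a bound of 0.12 or higher. With a pseudocount Vill was at -0.52, Krt5 at 0.41 and Dst at 0.56. With the lower floor Stk10 was still below it in the knockout pool, a bound of -2.27 or lower. With the floor at the 30th percentile, 24 other keratins were measured, 4 of them at least 1.5-fold higher and 4 lower, against 2 and 0 of 10. With it at the 70th percentile, 2 of 38 other brush border genes were at least 1.5-fold lower, against 5 of 44. Of linker and filament genes 0 of 11 were, against 2 of 16, and Evpl was among those 11 as a bound. No paired analysis was possible because 1 array was run per group, and for that reason neither array could be left out.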

Other observations

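Several cytoskeletal genes, chosen here after their values were seen, had unlike ratios by their own probe sets. The brightest probe set of each lay within 1 SD of 0 at either error, so it gave no direction. Tpm1, a tropomyosin, had a log2 ratio of 0.05 by its brightest probe set (4258 in the knockout pool and 4103 in the control pool). Another bright one gave 0.25, and a dim one gave -0.77 (156 in the knockout pool and 265 in the control pool). Dsp, desmoplakin, had ratios of 0.08 by its brightest probe set and -0.41 by a second bright one (9596 in the knockout pool and 12723 in the control pool). Slk, an ezrin kinase, had ratios of -0.04 by its brightest probe set and 0.65 by another (1322 in the knockout pool and 844 in the control pool). Its other measured probe sets gave 0.02 and -0.21. Which transcript forms these probe sets read was not analysed here.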
